A study of Mus musculus with 81 samples.

Results

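The pools described here are 32 of 81 RNA pools of whole mouse heart, chosen by their level of Fos, an immediate early gene. Within each diet the arrays were ranked by the single Fos probe set, the 8 highest chow and 8 highest high fat arrays forming the high Fos group and the 8 lowest of each forming the low Fos group. The 16 high and 16 low pools were therefore selected on a measured value, and no treatment separates them. The other 49 pools, 26 on chow and 23 on high fat, were in neither group. Because Fos chose the pools, its own difference between them is given as a description with no test.

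Every pool held RNA of about 5 males of 1 inbred strain on 1 diet, killed at 29 weeks after an overnight fast, under isoflurane and with perfusion. The strains were BXD recombinant inbred lines, which carry random mixtures of the C57BL/6J and DBA/2J genomes, and both parents, which fell in neither group. In all, 42 strains were arrayed on chow and 39 of them also on high fat. Chow was a Harlan diet. The labels do not describe what the high fat feed was made of, and their feeding protocol speaks of chow for those samples too. Values are spread between pools, since animals were mixed before hybridisation, and only 1 array was made per strain and diet.

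Fos encodes a leucine zipper protein that pairs with Jun proteins to form the transcription factor AP-1. With Egr1, Jun, Atf3, the Nr4a nuclear receptors and other genes it makes up the immediate early response, in which ready-made kinases and factors such as serum response factor and CREB start transcription without new protein synthesis. The transcripts are short-lived, and feedback inhibitors such as Dusp1 and Zfp36 are induced alongside the factors. In the heart these genes are known to respond to stretch, adrenergic signals and ischaemia.

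On chow the high group held BXD68, BXD50, BXD44, BXD62, BXD83, BXD103, BXD79 and BXD49, and the low group BXD60, BXD98, BXD87, BXD75, BXD55, BXD81, BXD61 and BXD100. On high fat the high group held BXD103, BXD84, BXD50, BXD65, BXD62, BXD56, BXD101 and BXD95, and the low group BXD61, BXD69, BXD55, BXD100, BXD87, BXD73, BXD98 and BXD81. Thus 13 strains supplied the high pools, 3 of them (BXD50, BXD62 and BXD103) on both diets. The low pools came from 10 strains, 6 of them (BXD55, BXD61, BXD81, BXD87, BXD98 and BXD100) on both diets. No strain was in both groups.

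Levels are scores on a log-like scale whose base is not stated, rescaled so that all arrays share the mean 8 and the SD 2, and differences are therefore given in these units and never as a fold. Fos on chow ran from 7.92 to 10.25 units with a median of 9.08. The last chow pool in the high group stood at 9.59 and the next outside at 9.58, so that edge is all but continuous. At the lower edge the last pool inside stood at 8.66 and the next outside at 8.71. On high fat Fos ran from 8.15 to 10.66 units with a median of 9.15. The high group ended at 9.77 with the next pool at 9.69, and the low group ended at 8.73 with the next at 8.74. Mean Fos was 10.04 ± 0.296 units (SD, n = 16) in the high pools and 8.39 ± 0.243 (SD, n = 16) in the low pools, a difference of 1.65 by construction.

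All arrays were alike in whole: the median Pearson r of an array with the others of its diet lay between 0.980 and 0.989. In the high pools it lay between 0.985 and 0.989, and in the low pools in the same range, so neither group held an array that stood apart. The heart muscle markers fit the tissue label in both groups, with the troponin Tnnt2 at a mean of 15.90 units in the high and 15.99 in the low pools, and 0 of 10 were called different. In RNA of whole tissue, fewer cells of a type and less RNA per cell cannot be told apart.

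**Figure D1:**
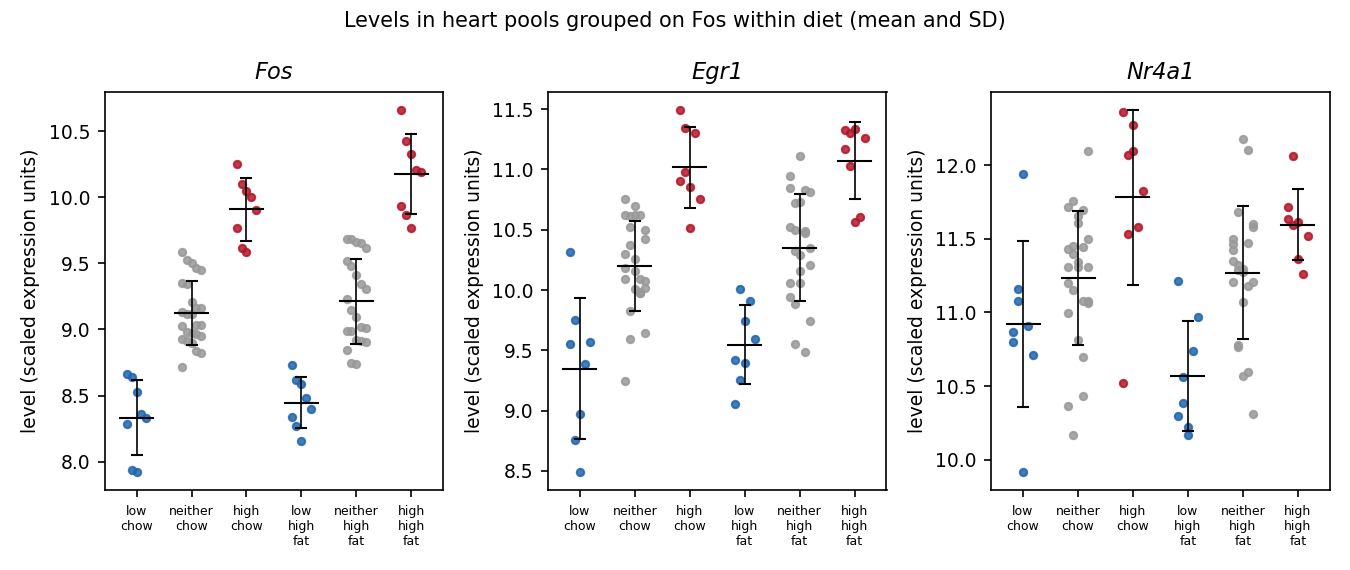
Levels of Fos, Egr1 and Nr4a1 in units, 1 point per pool, in the low, neither and high Fos groups of each diet, with the mean and SD of each group as bars. Fos is separated because the groups were chosen on it, Egr1 of all 16 high pools lies above all 16 low pools, and for Nr4a1 the groups overlap on chow and not on high fat.

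Across the 22179 genes other than Fos, tested by limma with diet in the model, 24 were higher in the high Fos pools (0.108% of genes tested) and 3 were lower (0.0135%) at a Benjamini-Hochberg adjusted p under 0.05. The called genes were thus 27 in all (0.122%), and 17 of the 24 higher genes belong to the 5 immediate early lists examined. Those lists hold 5, 7, 28, 27 and 23 of the 22179 tested genes, and were chosen with earlier results of these data known. The median difference over all genes was 0.0055 units, with 11800 of 22179 above 0; the scaling of each array to 1 mean holds these near balance and hides any common shift. Higher genes were led by Egr1, Btg2, Nr4a1, Zfp36, Apold1 and Ccn1. The 3 genes whose high and low pools did not overlap at all were Btg2, Egr1 and Jun (0.0135% of genes tested). These p-values ask whether a gene goes with Fos over these pools.

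Promoter sequences of Fos and 3 of these genes are printed because all 4 hold the core of the cAMP response element, the site at which CREB and ATF proteins are known to bind. They are the 250 bases before the transcription start, written 5′ to 3′ from RefSeq (GRCm38.p6), with the core TGACGT in capitals on whichever strand it was found.
Fos (chr12:85473640-85473889, plus strand): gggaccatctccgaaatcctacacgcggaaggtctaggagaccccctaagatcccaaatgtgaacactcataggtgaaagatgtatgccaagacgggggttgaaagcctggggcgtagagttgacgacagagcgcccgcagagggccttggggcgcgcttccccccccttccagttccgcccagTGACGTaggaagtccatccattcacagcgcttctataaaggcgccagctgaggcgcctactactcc
Btg2 (chr1:134079156-134079405, minus strand): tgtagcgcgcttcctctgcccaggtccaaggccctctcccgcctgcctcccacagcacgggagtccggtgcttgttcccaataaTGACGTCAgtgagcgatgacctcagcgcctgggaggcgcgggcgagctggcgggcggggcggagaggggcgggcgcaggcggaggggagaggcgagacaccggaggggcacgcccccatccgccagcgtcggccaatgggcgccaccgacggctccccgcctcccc
Dusp1 (chr17:26508473-26508722, minus strand): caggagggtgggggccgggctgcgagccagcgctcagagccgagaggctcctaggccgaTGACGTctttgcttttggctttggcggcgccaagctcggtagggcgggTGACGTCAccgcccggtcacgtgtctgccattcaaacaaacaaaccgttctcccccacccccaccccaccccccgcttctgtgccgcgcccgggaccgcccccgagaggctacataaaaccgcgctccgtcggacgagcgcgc
Ccn1 (chr3:145649986-145650235, minus strand): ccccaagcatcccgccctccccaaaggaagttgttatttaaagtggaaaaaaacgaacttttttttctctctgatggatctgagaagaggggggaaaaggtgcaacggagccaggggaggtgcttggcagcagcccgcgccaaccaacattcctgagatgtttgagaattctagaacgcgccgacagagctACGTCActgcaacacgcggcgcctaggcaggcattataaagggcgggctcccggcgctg
The core stood 66 bases before the start in Fos and 59 before it in Ccn1, and in Dusp1 it was found at 191, 143 and 141 bases. In Btg2 the matches at 166 and 164 bases are the 2 strands of 1 palindrome, TGACGTCA, as are those at 143 and 141 in Dusp1. TATAAA lay 33 bases before the start in Fos and 25 in Ccn1.

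Windows running from 250 bases before to 50 after the start were found for 18 of 25 genes (Fos and the 24 higher genes), 19 windows in all. TGACGT on either strand was in 8 of 19 windows (42.1%), against 7.51% of all 32851 windows of the same length. The 8 genes were Fos, Btg2, Dusp1, Ccn1, Atf3, Ppp1r15a, Ctla2b and D630033O11Rik. The full TGACGTCA, which contains that core, was in 3 windows (15.8% against 1.79% of all), and TATAAA in 7 (36.8% against 13.6%). The EGR site GCGNGGGCG was in 5 (26.3% against 5.55%), those of Btg2, Zfp36, Fosb, Nr4a1 and Nr4a2. The AP-1 site TGANTCA was in 1 window (5.26% against 7.81%) and the CArG box, bound by serum response factor, in 1 (5.26% against 1.63%). Motifs were searched on both strands. Sites farther than 250 bases before the start were not searched, so a window without a match does not show that a gene lacks the site. A match is a run of letters in this window and was not tested as a site.

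AP-1 is built from Fos and Jun proteins, and 3 of its 5 other measured subunits were higher in the high pools: Jun, Junb and Fosb. The median difference of the 5 was 0.465 units against 0.0055 over all genes, and all 5 were positive. Jun, the main partner of Fos, had a lowest, median and highest level of 11.66, 11.89 and 12.22 units in the low chow pools and of 12.33, 12.43 and 12.70 in the high chow pools. On high fat Jun ran through 11.58, 11.95 and 12.11 in the low pools and 12.38, 12.49 and 12.83 in the high pools. Every high pool stood above every low pool, on both diets. Jun differed by 0.583 ± 0.0568 units (SE, limma adjusted p = 3.75e-08).

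Junb, a Jun relative with weaker transactivation, ran through 10.07, 10.20 and 10.41 units in the low chow pools and 10.72, 10.76 and 11.01 in the high chow pools. On high fat it ran through 10.04, 10.43 and 10.66 in the low pools and 10.59, 10.80 and 11.30 in the high pools. The groups were apart on chow and overlapped slightly on high fat. Junb differed by 0.489 ± 0.0614 units (limma adjusted p = 5.15e-06). Fosb, the closest relative of Fos, overlapped on both diets, with low pools at 7.73 to 8.41 units on chow and 7.85 to 8.28 on high fat. Its high pools lay at 8.18 to 8.87 and 8.16 to 8.76 units. The difference of Fosb was 0.465 ± 0.0733 units (limma adjusted p = 0.000459). Fosl2 and Jund, the AP-1 subunits that many resting tissues express, were 0.243 ± 0.0618 and 0.192 ± 0.0629 units apart and did not pass (limma adjusted p = 0.170 and 0.487).

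Among EGR zinc finger factors and NR4A orphan nuclear receptors, 4 of 7 measured members were higher: Egr1, Egr3, Nr4a1 and Nr4a2. All 7 were positive, with a median difference of 0.455 units. Egr1, which binds GC-rich sites and is switched on by many of the stimuli that induce Fos, had the largest difference of any called gene. Its lowest, median and highest level were 8.49, 9.47 and 10.31 units in the low chow pools and 10.51, 10.94 and 11.49 in the high chow pools. On high fat they were 9.06, 9.50 and 10.01 in the low pools and 10.56, 11.22 and 11.33 in the high pools. No low pool reached the lowest high pool on either diet. Egr1 differed by 1.60 ± 0.133 units (limma adjusted p = 7.83e-10).

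Egr3, a later relative of Egr1, overlapped between groups: low pools lay at 8.18 to 8.67 units on chow and 8.12 to 8.82 on high fat, high pools at 8.55 to 9.45 and 8.41 to 9.40. It differed by 0.533 ± 0.0828 units (limma adjusted p = 0.000378). Egr2 and Egr4 differed by 0.273 ± 0.0779 and 0.0886 ± 0.0725 units, which did not pass (limma adjusted p = 0.333 and 0.852).

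Nr4a1, an orphan receptor whose activity depends on how much of it is made, spread widely. On chow its lowest, median and highest level were 9.91, 10.89 and 11.94 units in the low pools and 10.52, 11.95 and 12.36 in the high pools. On high fat they were 10.17, 10.47 and 11.21 in the low pools and 11.26, 11.60 and 12.06 in the high pools. The overlap on chow rested on BXD103, a high Fos pool with Nr4a1 at 10.52 units, and on BXD87, a low Fos pool with Nr4a1 at 11.94. Nr4a1 differed by 0.942 ± 0.151 units (limma adjusted p = 0.000571). Nr4a2 was also higher, by 0.455 ± 0.0820 units (adjusted p = 0.00368), with the chow pool of BXD49 at 10.24 units as its highest. That call was lost with 10 pools per group and diet (adjusted p = 0.0978) and with endothelial markers as a covariate (0.0628). Nr4a3 was 0.444 ± 0.129 units apart and did not pass (adjusted p = 0.352), its low pools reaching from 8.12 to 9.51 units and its high pools from 8.63 to 10.10.

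Of 28 other immediate early regulators 3 were called, all higher: Ier2, Atf3 and Hes1. Another 22 were positive without passing, and the median difference of the list was 0.122 units. Ier2, a small nuclear protein of the first wave, stood at 6.95 to 7.84 units in the low chow pools and 7.78 to 8.33 in the high chow pools. On high fat it stood at 7.25 to 7.83 and 7.82 to 8.58 units. The groups thus met only at their edges, and Ier2 differed by 0.641 ± 0.0770 units (limma adjusted p = 2.54e-06). Atf3, a stress-induced repressor of the ATF and CREB family, differed by 0.593 ± 0.103 units (adjusted p = 0.00235), by 0.767 on chow and 0.419 on high fat. Hes1, a repressor best known as a Notch target, differed by 0.283 ± 0.0508 units (adjusted p = 0.00368), a call lost with the arrays of a strain averaged (adjusted p = 0.0778), with 6 pools per group and diet (0.0681) and with endothelial markers as a covariate (0.0628). Klf2, a factor of flow-exposed endothelium, differed by 0.295 ± 0.0709 units and Arid5a, which stabilises inflammatory messages, by 0.250 ± 0.0742, and neither passed (adjusted p = 0.124 and 0.389).

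Feedback inhibitors dampen the signals that start the response, and 4 of 27 measured members were higher: Btg2, Zfp36, Dusp1 and Ppp1r15a. A further 20 were positive without passing, and the list had a median difference of 0.132 units. Btg2, an antiproliferative adaptor of the deadenylase that shortens messenger RNA tails, gave the smallest adjusted p of all genes. Its lowest, median and highest level were 10.59, 10.80 and 11.02 units in the low chow pools and 11.45, 11.98 and 12.29 in the high chow pools. On high fat they were 10.48, 10.78 and 11.08 in the low pools and 11.57, 11.84 and 12.45 in the high pools. A gap separated all high from all low pools on both diets. Btg2 differed by 1.16 ± 0.0829 units (limma adjusted p = 2.11e-11).

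Zfp36, tristetraprolin, which marks AU-rich messages for decay, had a lowest, median and highest level of 10.71, 11.14 and 11.49 units in the low chow pools and 11.79, 12.21 and 12.44 in the high chow pools. On high fat these were 10.48, 11.16 and 11.80 in the low pools and 11.76, 11.94 and 12.44 in the high pools. The groups touched on high fat alone, through 1 low pool. Zfp36 differed by 0.929 ± 0.0927 units (limma adjusted p = 4.22e-08). Dusp1, the nuclear phosphatase that switches off MAP kinases, differed by 0.619 ± 0.0722 units (adjusted p = 1.44e-06), with low pools at 11.91 to 12.64 and 12.08 to 12.56 units on chow and high fat and high pools at 12.58 to 13.24 and 12.59 to 13.08. Ppp1r15a, which restores translation after stress by dephosphorylating eIF2α, differed by 0.274 ± 0.0498 units (adjusted p = 0.00414). Its call was lost with the arrays of a strain averaged (adjusted p = 0.0722), with 6 pools per group and diet (0.168), with pools ranked over both diets together (0.122) and with endothelial markers as a covariate (0.0536). Dusp6, a phosphatase specific to ERK, came just short with 0.282 ± 0.0621 units (adjusted p = 0.0521), as did the ERBB inhibitor Errfi1 by a wider margin, with 0.319 ± 0.0788 units (adjusted p = 0.141).

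Secreted and cell surface products of the response were called for 3 of 23 measured members, all higher: Adamts1, Apold1 and Ccn1. Of the 23, 19 were positive and the median difference was 0.121 units. Ccn1, a matrix-bound ligand of integrins, had a lowest, median and highest level of 11.51, 11.96 and 12.49 units in the low chow pools and 12.39, 12.82 and 13.17 in the high chow pools. On high fat these were 11.55, 12.10 and 12.41 in the low pools and 12.36, 12.72 and 12.98 in the high pools. The groups overlapped narrowly on each diet, and Ccn1 differed by 0.746 ± 0.0925 units (limma adjusted p = 4.24e-06). Apold1, an early gene of vascular endothelium, lay at 8.86 to 9.56 units in the low and 9.58 to 10.45 in the high chow pools, and at 8.96 to 9.90 and 9.93 to 10.53 on high fat. Within each diet its groups did not overlap, and it differed by 0.844 ± 0.105 units (adjusted p = 4.24e-06). Adamts1, a secreted metalloprotease that cleaves proteoglycans, differed by 0.555 ± 0.0547 units (adjusted p = 3.81e-08). Ptgs2, the inducible prostaglandin synthase, and Thbs1, a matrix protein that activates TGF-β, differed by 0.476 ± 0.134 and 0.392 ± 0.113 units and did not pass (adjusted p = 0.326 and 0.350).

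**Figure D2:**
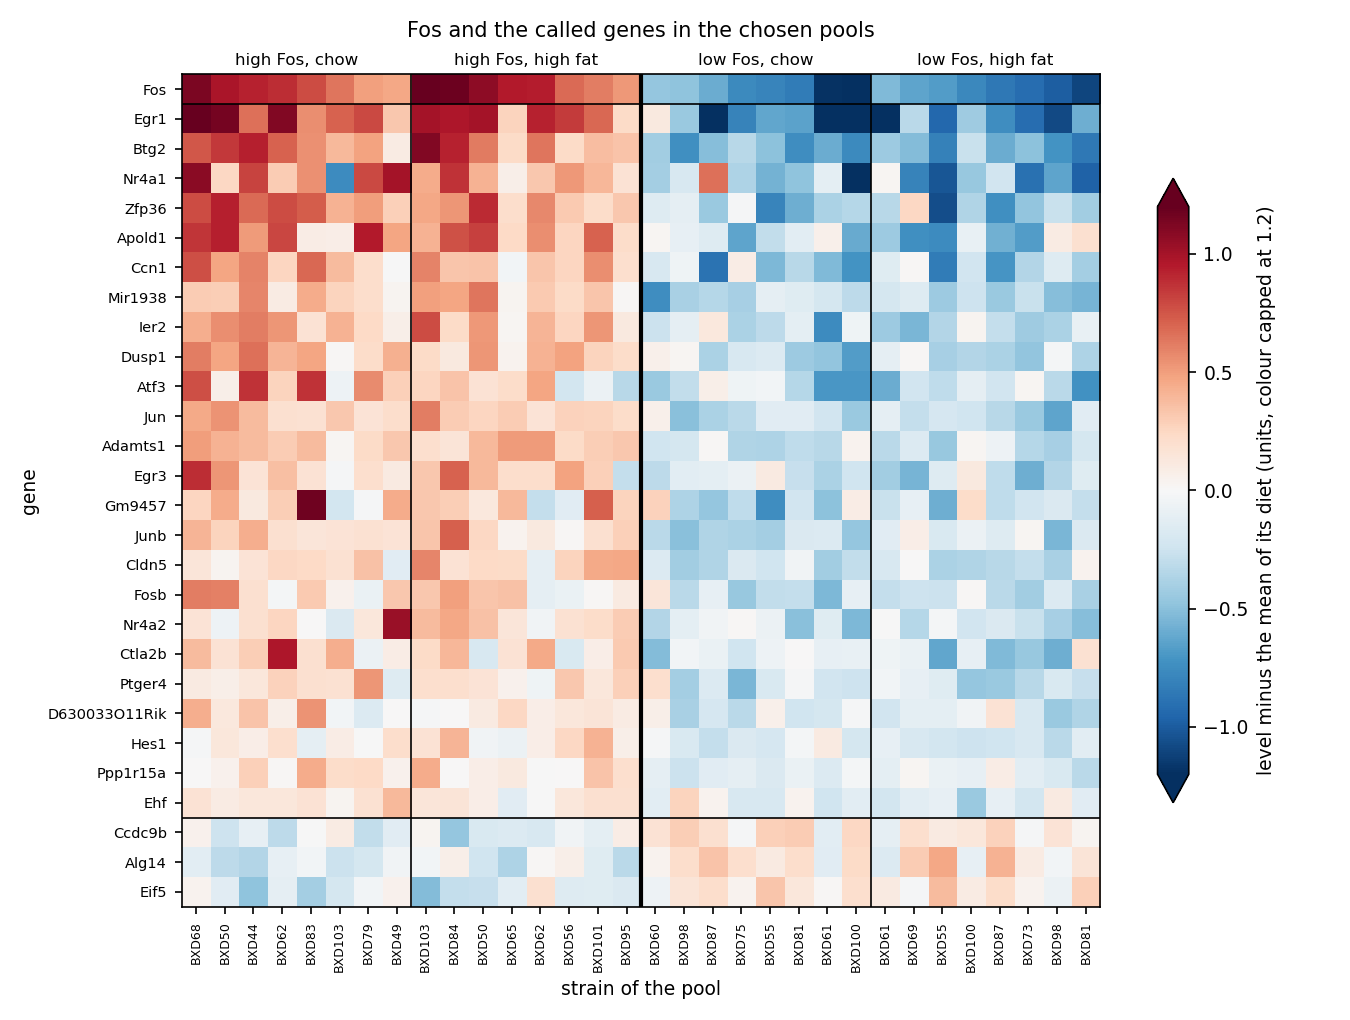
Fos and the 27 called genes (vertical axis) in the 32 chosen pools (horizontal axis, by strain), coloured by the level minus the mean of all pools of the same diet in units, with the colour capped at 1.2. Genes above the lower line are higher in the high Fos pools at left and the 3 below it are lower there, and single cells such as Nr4a1 in the chow pool of BXD103 go against their group.

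Among the called genes on none of the immediate early lists, Cldn5, Ptger4, Ctla2b and Ehf were higher and Eif5, Alg14 and Ccdc9b were lower. Cldn5, the claudin of endothelial tight junctions, differed by 0.472 ± 0.0603 units (limma adjusted p = 7.10e-06), and its groups overlapped on both diets. Ptger4, the EP4 receptor for prostaglandin E, differed by 0.388 ± 0.0624 units (adjusted p = 0.000575). Ctla2b, a protein resembling the inhibitory part of a cathepsin, differed by 0.445 ± 0.0880 units (adjusted p = 0.0146), and Ehf, an epithelial ETS factor at 6.50 ± 0.161 units (SD, n = 16) in the low pools, by 0.240 ± 0.0505 (adjusted p = 0.0321). The call of Ehf was lost in 13 of 20 other settings, such as averaging the arrays of a strain (adjusted p = 0.0722), and in 15 of the 32 fits that left out 1 array, where it reached 0.0700.

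Eif5, which triggers GTP hydrolysis at the start codon, fell by 0.303 ± 0.0601 units (SE, limma adjusted p = 0.0151), from 11.95 ± 0.141 (SD, n = 16) in the low pools to 11.64 ± 0.193 in the high pools. Alg14, a subunit of the enzyme that adds the next sugar to the N-glycan precursor, fell by 0.295 ± 0.0611 units (adjusted p = 0.0266), and Ccdc9b by 0.258 ± 0.0550 (adjusted p = 0.0364). With strain as a random block the call of Ccdc9b was lost (adjusted p = 0.0614), and with the arrays of a strain averaged none of the 3 falls was called.

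The remaining higher genes are Mir1938, Gm9457 and D630033O11Rik. Mir1938, a microRNA gene named as one of the 10 most like Fos, differed by 0.642 ± 0.0651 units (limma adjusted p = 5.46e-08). Its levels ran from 8.57 to 9.21 units in the low and 9.34 to 9.90 in the high chow pools, and from 8.59 to 9.00 and 9.17 to 9.80 on high fat, with no overlap within a diet. Its mature sequence is printed, with the seed in capitals, because Mir1938 is the only microRNA gene called in this comparison.
mmu-miR-1938 (chr12:40222782-40222803, minus strand, RefSeq GRCm38.p6): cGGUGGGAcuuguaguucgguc
No other of the 1738 mature mouse sequences in the RefSeq table shares this seed. Mir1938 lies inside Ifrd1, a transcription co-regulator gene, which differed by 0.129 ± 0.0505 units and was not called (adjusted p = 0.623). Which RNA the Mir1938 probe set reads was not tested. Gm9457 and D630033O11Rik, which are outside the rule for named genes and were chosen after their values were seen, differed by 0.510 ± 0.108 and 0.293 ± 0.0636 units (adjusted p = 0.0347 and 0.0455). Both calls were lost with strain as a random block (adjusted p = 0.0580 and 0.0614) and with the arrays of a strain averaged. In all, Gm9457 lost its call in 11 and D630033O11Rik in 14 of 20 other settings. Among the 32 fits that left out 1 array they lost it in 20 and 23. Their mean levels over all 81 pools were 5.91 and 7.37 units, under the median gene level of 8.18.

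Each pool was scored by how many of the 24 higher genes exceeded the median of its diet, as a description. High pools had 17 to 24 (median 22), low pools 0 to 8 (median 2) and the pools in neither group 3 to 22 (median 12). The split of high and low pools follows from how the genes were called, while the pools in neither group filled the range between them. The lowest score among high pools was 17, in the chow pool of BXD103 and the high fat pool of BXD62. The high fat pool of BXD44, in neither group with Fos at 9.66 units, scored 22, as many as a typical high pool.

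The same genes led on each diet. Fitted within chow alone, 12 genes were called, and within high fat alone 14, all of them higher and 11 shared. All 24 higher genes were positive on both diets, though the model that found them used both. Egr1 differed by 1.67 units on chow and 1.53 on high fat, Btg2 by 1.17 and 1.15, and Ccn1 by 0.817 and 0.675. Junb, at 0.591 and 0.388 units, and Atf3 were among those with the larger gap between diets. The test of a different effect by diet called 0 genes with limma, with 757 at an unadjusted p under 0.05 and a smallest adjusted p of 0.9996.

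**Figure D3:**
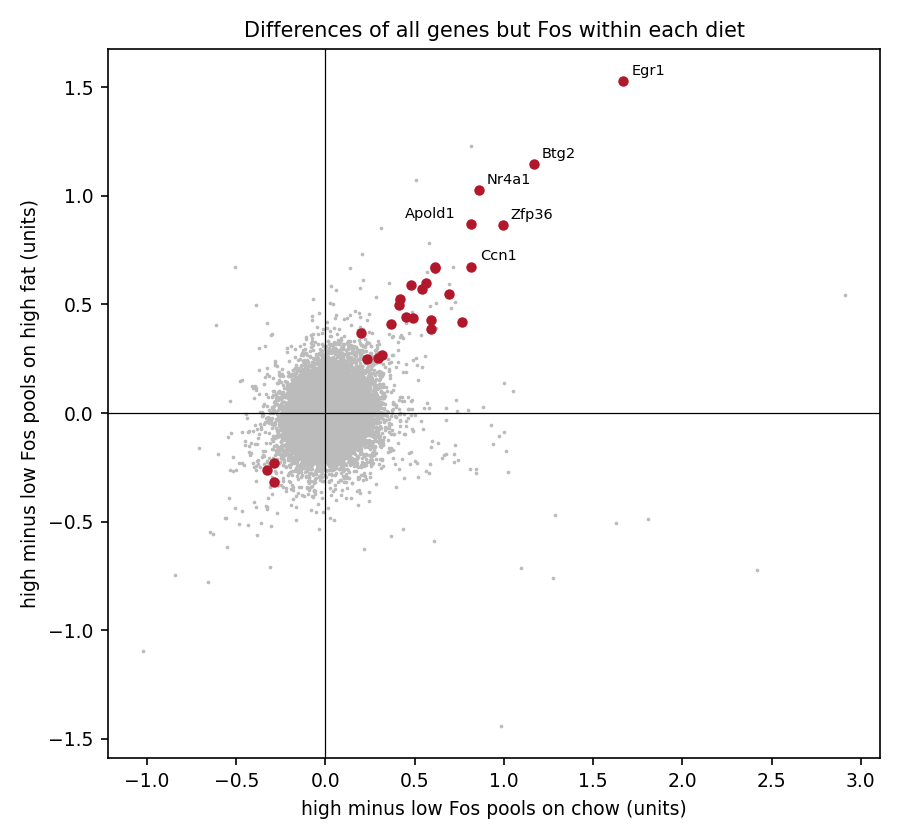
Difference between high and low Fos pools on chow (horizontal, units) against that on high fat (vertical, units), 1 point per gene without Fos, with the 27 called genes in red. The red points lie near the diagonal, while grey points far to the right or below are uncalled genes such as H2-Ea (2.91 units on chow, 0.543 on high fat) and Alb (2.42 and -0.725).

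Whether the level of Fos goes with the strain was asked with the other diet's arrays, which the ranking on 1 diet did not use. Those arrays were themselves ranked within their own diet, so their Fos values also took part in forming the groups. The high fat pools of strains ranked on chow had Fos at 9.88 ± 0.511 units (SD, n = 7) for the high and 8.50 ± 0.260 (SD, n = 7) for the low strains. The lowest, median and highest were 9.31, 9.66 and 10.66 units against 8.15, 8.48 and 8.90, so that all 7 high strains stood above all 7 low strains. That difference of 1.38 units gave p = 0.000583 in a two-sided exact permutation test, the smallest that this design can give (adjusted over the 2 tests, 0.00117). In the other direction, chow pools of strains ranked on high fat had Fos at 9.45 ± 0.465 units (SD, n = 8) against 8.53 ± 0.561 (SD, n = 8). The lowest, median and highest were 8.93, 9.40 and 10.10 units against 7.92, 8.43 and 9.58, with overlap. The difference was 0.918 units (exact permutation test, two-sided, p = 0.00451, adjusted 0.00451). Both tests share the strains that were extreme on both diets.

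Over the 39 strains with both pools, Fos on chow and on high fat correlated with a Pearson r of 0.587 (permutation p = 9e-05, adjusted 0.000375) and a Spearman rho of 0.590 (permutation p = 7e-05, adjusted 0.00035). Without BXD100 and BXD68, the strains farthest from the median on chow, r was 0.597. This was 1 of 25 relations computed, for Fos and the 24 higher genes, each with 100000 permutations. Since these genes were selected for moving with Fos, which strains share, their relations are not independent of it. Of the 24, 17 passed by Pearson and 16 by both measures. The relation was not computed for the other genes. How common it is over all genes is therefore not known, and the counts mark no trait of these 24. Ccn1 had the highest r at 0.827 (rho 0.818, permutation p = 1e-05 for both, the smallest that can be given, adjusted 6.25e-05 and 8.33e-05), and 0.779 without BXD68 and BXD87. For Egr1 r was 0.754 (rho 0.788, permutation p = 1e-05 for both, adjusted 6.25e-05 and 8.33e-05) and 0.750 without BXD100 and BXD61. Nr4a2, Fosb and Egr3, immediate early genes too, did not pass, with r of -0.01, 0.204 and 0.292 (rho 0.0333, 0.224 and 0.305, permutation p by Pearson 0.938, 0.213 and 0.072, adjusted 0.938, 0.232 and 0.0864). Without the 2 farthest strains their r was 0.0907, 0.344 and 0.297. What the 2 pools of a strain share beside their genome was not tested.

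**Figure D4:**
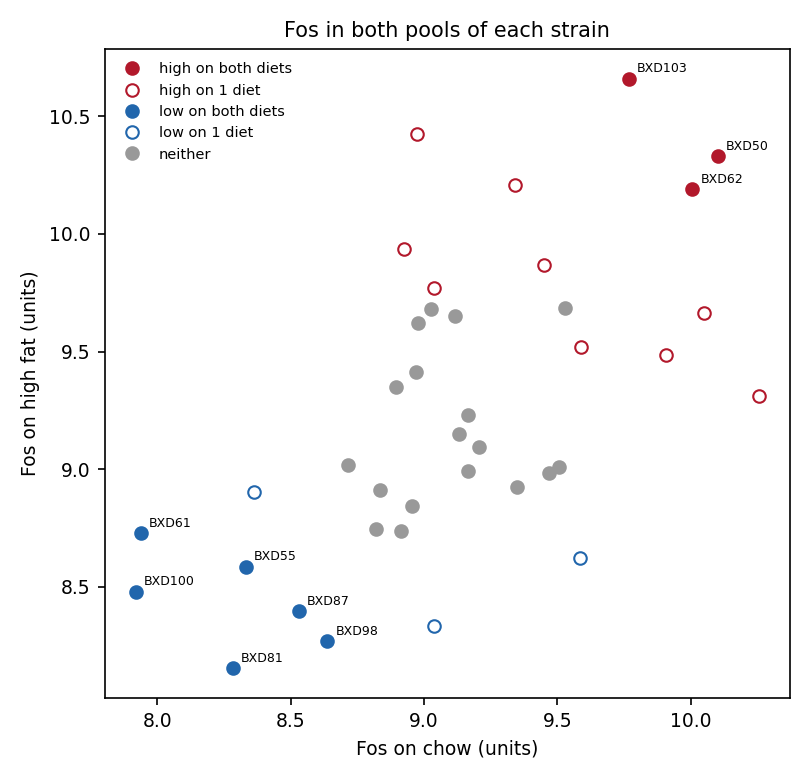
Fos in the chow pool (horizontal, units) and the high fat pool (vertical, units) of each of 39 strains, coloured by group, with filled coloured points for strains in the same group on both diets. BXD50, BXD62 and BXD103 lie at the upper right and 6 low strains at the lower left, and r over all points is 0.587.

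All genes, Fos included, were then compared between the same strains' other-diet pools, 15 from strains ranked high and 15 from strains ranked low, with each array grouped by the Fos of the other diet. Most of these arrays also belong to the first comparison with the same label, 6 of the 15 as high and 12 of the 15 as low pools. The comparisons are therefore not independent, and the shared arrays had been chosen on their own Fos. In it 9 of 22180 genes were called (0.0406%), all higher: Fos, Egr1, Ccn1, Mir1938, Btg2, Zfp36, Dusp1, Hes1 and Ptger4. Egr1 differed by 1.35 ± 0.161 units (limma adjusted p = 2.67e-05) and Ccn1 by 0.739 ± 0.0928 (adjusted p = 4.34e-05). Fos, counted among the 9, differed by 1.13 ± 0.160 units. For Fos this is a description, since the shared arrays were chosen on it. Jun, with 0.394 ± 0.0822 units, did not pass (adjusted p = 0.0699), nor did Nr4a1 with 0.551 ± 0.160 (adjusted p = 0.476). All 24 higher genes were positive and all 3 lower genes negative in these arrays. That is a description, since the shared arrays had helped to call these genes.

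**Figure D5:**
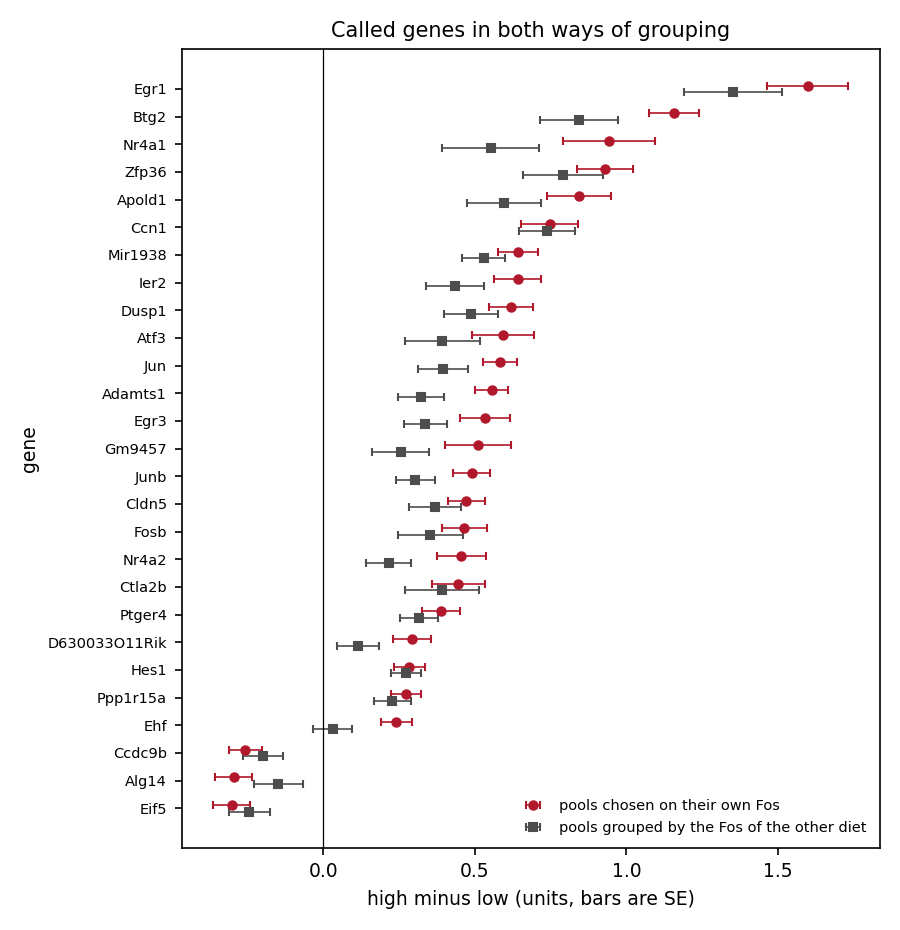
Difference between high and low pools in units with SE bars for the 27 called genes, in the pools chosen on their own Fos (circles) and in pools grouped by the Fos of the same strain on the other diet (squares). Ccn1 keeps nearly its whole difference (0.746 and 0.739 units) and Ehf keeps little (0.240 and 0.0314).

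The 49 pools in neither group, whose Fos spans 8.71 to 9.69 units, hold less spread in Fos (SD within diet 0.280 units against 0.587 over all 81 pools). With Fos as a numeric term limma called 0 of 22179 genes there. Of these genes, 1198 had an unadjusted p under 0.05 in either direction. The smallest adjusted p was 0.100, shared by Egr1 and the surfactant gene Sftpa1. After quantile normalization 1 gene was called, Sftpa1. Egr1 rose by 0.831 ± 0.169 units per unit of Fos, and 23 of the 24 higher genes had a positive slope, 11 of them with an unadjusted p under 0.05. The exception was Gm9457, with a slope of -0.05. How many of all genes had a positive slope is not given here, so the count of 23 is a description. Sftpa1, which marks lung, was not different between high and low pools by the test (0.03 ± 0.0501 units, adjusted p = 0.937).

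Over all 81 pools, with the diet mean taken off, the 10 genes whose pattern was most like Fos were Btg2 (Pearson r 0.858), Egr1 (0.857), Dusp1 (0.732), Zfp36 (0.709), Ccn1 (0.688), Jun (0.679), Mir1938 (0.674), Ier2 (0.663), Apold1 (0.643) and Adamts1 (0.638). The next gene had 0.617, so the list has no sharp end. The most negative r was -0.53, of Eif5. These values include the pools that chose the genes and are a description.

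Diet was called for few of these genes. In the 39 strains with both pools, a comparison added after the values were seen, 9985 of 22180 genes differed by diet in limma (45.0%), and of the 24 genes a rise on high fat was called for 2 and a fall for 2. Apold1 was higher by 0.236 ± 0.0642 units (adjusted p = 0.00251; higher in 25 of 39 strains), and Egr1 by 0.168 ± 0.0699 (adjusted p = 0.0465; 25 of 39). Nr4a2 fell by 0.245 ± 0.0668 units on high fat (adjusted p = 0.00262) and Mir1938 by 0.172 ± 0.0455 (adjusted p = 0.00192). Fos did not pass (0.132 ± 0.0828 units, adjusted p = 0.196).

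Genes that act before or beside the immediate early response were set against the same pools. Of 22 upstream kinases and partners of serum response factor 0 were called, 14 were positive, and the median difference was 0.0139 units. Map3k1 and Map2k1 had the smallest adjusted p, with differences of 0.101 ± 0.0484 and -0.145 ± 0.0695 units (limma adjusted p = 0.713 and 0.715). Creb1 and Mapk8 had differences of -0.10 ± 0.0498 and -0.09 ± 0.0590 units, and Elk1 was 0.0712 ± 0.0468 apart (adjusted p between 0.719 and 0.812). Of 16 cytoskeletal targets of serum response factor 0 were called, with Actb at 0.180 ± 0.0667 units (adjusted p = 0.575). Of 14 hypoxia genes 0 were called and 5 were positive.

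Heat shock proteins had 0 of 14 called, with 9 positive and a median of 0.0104 units. Hspa1a, the inducible chaperone, spread from 8.25 to 9.76 units in the low pools and from 8.79 to 12.05 in the high pools, so that the groups overlapped with single high pools far above. It differed by 0.681 ± 0.234 units (limma adjusted p = 0.523). Glucocorticoid targets had 0 of 14 called, Sgk1 differing by 0.281 ± 0.0797 units (adjusted p = 0.333). Clock genes had 0 of 14 called, with Per1, which is also an early gene, at 0.194 ± 0.0964 units (adjusted p = 0.730). Fetal and stretch genes of cardiomyocytes had 0 of 12 called with a median of 0.131 units, Nppb, the natriuretic peptide induced by stretch, differing by 0.385 ± 0.132 units and Acta1 by 0.477 ± 0.200 (adjusted p = 0.523 and 0.665).

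Markers of other cells and tissues were compared in the same way, and their part in the differences above was not tested beyond what follows. Endothelial markers had 1 of 13 called, Cldn5, and a median difference of 0.0125 units. The list mean was 11.83 to 12.07 units in the high and 11.82 to 12.04 in the low pools, and with it as a covariate 20 genes were called, 18 of them among the 24 and none lower. Liver markers had 0 of 9 called, but all 9 were positive, with a median of 0.261 units. The larger of these lay on chow: Alb differed by 2.42 units on chow and -0.725 on high fat, Cyp2e1 by 0.930 and -0.06, and Cps1 by 0.677 and -0.19. The liver list had means of 7.91 to 11.14 units in the high and 7.67 to 10.25 in the low pools. With the liver list as a covariate 27 genes were called, 21 of them among the 24. Alb spread over 7.93 to 14.28 units in the low and 8.75 to 14.93 in the high pools. Platelet markers had 0 of 6 called, 5 positive and a median of 0.0898 units. Atrial markers had 0 of 9 called and 8 positive, with list means from 9.27 to 12.68 units in the high and 9.64 to 13.04 in the low pools, and with them as a covariate 23 of the 24 genes were called.

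The lists for fibroblasts (11 genes), smooth muscle and pericytes (11), macrophages (14), neutrophils (10), B cells (6), T cells (8), adipocytes (7), brown fat (7), mesothelium (9), lung (9), skeletal muscle (11), and neurons and Schwann cells (9) had 0 called each. Their median differences lay between -0.05 (B cells) and 0.0862 units (T cells). The share of positive differences ran from 3 of 10 for neutrophils (30%) to 7 of 7 for brown fat (100%), against 53.2% over all genes. For smooth muscle and pericytes it was 9 of 11. Of erythroid markers 1 gene, Slc4a1, was measured and was not called (0.0746 units, adjusted p = 0.896). No member of any of the 30 lists was lower in the high Fos pools by the test.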

How the data were processed

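The authors deposited scores, 1 for each probe set, which look logarithmic with an unstated base and were scaled by array to the mean 8 and SD 2. Per the submitters' processing notes the software was Affymetrix Expression Console; its settings are not stated in them. Such scaling hides a change common to most transcripts, and the number of arrays limits precision. Symbols came from the gene table of the platform, and for each of 22180 genes with a probe set of a single symbol the one with the highest mean over 81 arrays was used; Fos has 1.

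The members and all gene lists were chosen with earlier results of these data known, and 346 of 385 listed genes were measured. The comparison used lmFit and eBayes of limma 3.58.1 (R 4.3.3) with Fos group and diet in the model, adjusted by Benjamini-Hochberg over 22179 genes, with Fos left out. The plan assumed log2 values, and no fold is printed. Scripts were tested on simulated data. Permutation tests were run in Python 3.11.15 with numpy 2.4.6, and ranks came from scipy 1.17.1. Pools are single arrays per strain and diet, so p-values treat pools of a strain on both diets as separate unless blocked.

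Named genes are all AP-1, EGR and NR4A members and the 10 genes most like Fos. From each other list they were drawn among the 5 smallest adjusted p, and for some lists not all 5 are printed. Up to 10 rises and 10 falls on no list with the same direction on both diets were added (predicted genes and RNA genes left out). Alternatives covered group size, ranking, normalization, strain, covariates, filters and leaving out each array.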

Additional observations from a re-analysis of the deposited data

Results flagged for a closer look

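Within the 4 groups of 8 pools, the highest or lowest pool was checked for standing apart from its neighbours (gap over range above Dixon's critical value for 8 samples). Of 132 checks over 33 genes 8 did so, against about 1 in 20 by chance. That count lies near the chance rate, so the pools below are listed as a description.

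Jun in the high fat pool of BXD103 stood above the other high Fos pools, at 12.83 units. Junb in the high fat pool of BXD84 did likewise, at 11.30 units, and in the low Fos group the high fat pool of BXD98 stood below the others, at 10.04. Nr4a1 in the chow pool of BXD103 was the lowest of the high Fos pools, at 10.52 units. The chow pool of BXD49 stood apart for Nr4a2, at 10.24 units, and for Ehf, at 6.99, above the other high pools both times. The chow pool of BXD60 was the lowest of the low Fos pools on chow for Ctla2b, at 6.95 units, and for Mir1938, at 8.57. None of these arrays was left out.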

How the results depend on the processing

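The count of called genes was 27. Over 21 other settings it ran from 12 to 29, and with each array left out in turn from 23 to 33, between 21 and 24 of the 24 higher genes being called each time. It moved by over 1.5 times only within chow alone (12) and within high fat alone (14), which hold fewer arrays. In the pools of neither group quantile normalization gave 1 called gene in place of 0 (Sftpa1, slope 0.378 units per unit of Fos, adjusted p = 0.0157), and the cause was not tested. None of the called genes and AP-1, EGR and NR4A members reversed its direction under the settings run. Among the other genes given, none of them called, signs did differ by diet, as for Alb (0.846 units over both diets, -0.725 on high fat) and Nppa (0.143 and -0.07). With strain as a random block (correlation 0.201) 24 genes were called, and with the arrays of a strain averaged, a setting chosen after seeing the data like the liver and endothelial covariates, 19. The calls of Ehf, Gm9457, D630033O11Rik, Alg14 and Ccdc9b were lost most often, and with the arrays of a strain averaged those of Hes1, Ppp1r15a and Eif5 were lost too. A ranking by the mean of several Fos probe sets was not run, since Fos has 1. No paired analysis of high against low pools was possible because no strain was in both groups.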
